A study of Mus musculus with 32 samples.

Results

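Intermediate filaments are the rope-like part of the cytoskeleton, and 7 of their genes were followed through spinal cord injury in mouse gastrocnemius, a calf muscle. They were Krt18 and Krt8, which encode a keratin pair of simple epithelia, Des (desmin), Sync (syncoilin), Synm (synemin), Vim (vimentin) and Nes (nestin). The genes were chosen by name as members of this family, and the choice was made knowing that Krt18 had one of the largest 7-day increases after injury in these data. Differences between injured and sham muscle at 7 days are therefore given as descriptions, without a test, and so are all comparisons across days. The 7 genes are 7 of the 55487 gene identifiers in the count table, and all 7 passed the low-count filter that kept 14955 genes. Krt18 and Krt8 passed it through the injured muscles, since no sham library held more than 12 counts of either, so counts over the 7 genes support nothing by themselves.

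The data are RNA-seq counts from 32 gastrocnemius libraries, made from muscle of young male mice at 7 or 28 days after an operation. Sham mice had sham surgery and vehicle (n = 4 at each day), SCI vehicle mice had a complete spinal cord injury (SCI) and vehicle (n = 6 at each day), and SCI boldine mice had the same injury and boldine (n = 6 at each day). Boldine, an alkaloid of the boldo tree, is known as a blocker of connexin hemichannels and pannexin channels. The sources used here give no strain, exact age, dose or route.

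Keratins assemble only as pairs of a type I and a type II protein, and Krt18 (type I) and Krt8 (type II) are such a pair, best known from simple epithelia such as liver and gut. In a mature muscle fibre the main filament protein is desmin, a type III protein that ties neighbouring Z-discs to each other and to the membrane and nuclei. Synemin and syncoilin co-assemble with or bind to desmin and reach the dystrophin complex at the membrane, while vimentin and nestin mark endothelial, connective tissue and regenerating muscle cells, with nestin also found at neuromuscular and myotendinous junctions.

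The promoters of Krt18, Krt8, Des and Sync are shown first, since these genes stood higher in both injured groups than in sham at 7 days. Each sequence is the RefSeq promoter of build GRCm38.p6, the assembly also known as mm10, and runs 5′ to 3′ on the gene's strand from 250 bases before the RefSeq start through 50 bases from it. Krt18 lies at chr15:102027966-102028265 on the plus strand, Krt8 at chr15:102004293-102004592 on the minus strand, Des at chr1:75360042-75360341 on the plus strand and Sync at chr4:129287371-129287670 on the plus strand. Capitals mark matches, on either strand, to the E-box CANNTG, which muscle regulatory factors such as MyoD are known to bind, and to the TATA box TATAAA.
Krt18: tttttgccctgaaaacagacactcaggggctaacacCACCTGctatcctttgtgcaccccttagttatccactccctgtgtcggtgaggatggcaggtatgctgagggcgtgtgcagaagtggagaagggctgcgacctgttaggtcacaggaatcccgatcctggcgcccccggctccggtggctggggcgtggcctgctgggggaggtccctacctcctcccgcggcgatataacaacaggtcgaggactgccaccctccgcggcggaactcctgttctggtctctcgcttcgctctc
Krt8: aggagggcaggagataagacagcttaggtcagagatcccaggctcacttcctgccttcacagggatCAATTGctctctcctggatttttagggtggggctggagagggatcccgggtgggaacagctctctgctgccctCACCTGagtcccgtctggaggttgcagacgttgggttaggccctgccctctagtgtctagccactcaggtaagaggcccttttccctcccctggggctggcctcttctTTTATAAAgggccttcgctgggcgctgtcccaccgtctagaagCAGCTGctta
Des: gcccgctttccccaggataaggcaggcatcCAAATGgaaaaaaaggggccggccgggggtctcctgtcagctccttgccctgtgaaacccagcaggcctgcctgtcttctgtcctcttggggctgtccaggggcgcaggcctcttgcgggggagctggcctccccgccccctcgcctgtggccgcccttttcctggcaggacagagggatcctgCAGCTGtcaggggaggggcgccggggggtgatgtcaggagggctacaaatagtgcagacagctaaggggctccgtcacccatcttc
Sync: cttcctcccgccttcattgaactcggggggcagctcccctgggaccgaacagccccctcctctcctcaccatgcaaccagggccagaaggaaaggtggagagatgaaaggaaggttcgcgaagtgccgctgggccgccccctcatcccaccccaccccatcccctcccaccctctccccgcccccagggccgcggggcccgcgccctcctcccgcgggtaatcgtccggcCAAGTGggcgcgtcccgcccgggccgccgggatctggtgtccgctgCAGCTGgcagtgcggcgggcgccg

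E-box letters stood in 5 of the 7 promoters, those of Krt18, Krt8, Des, Sync and Synm, against 72.3% of all 32851 RefSeq promoters of this length. The Krt18 promoter held 1 match, CACCTG, with its first base 214 bases before the start. The Krt8 promoter held 3, CAATTG 184 bases and CACCTG 111 bases before the start and CAGCTG at base 41 from it, and it also held a TATA box, read once on each strand in overlapping letters. A TATA box stood in 2 of the 7 promoters, those of Krt8 and Vim, against 13.6% of all promoters. No promoter of the 7 held an AP-1 site (TGANTCA; 7.81% of all promoters), an SRF CArG box (1.63%) or a MEF2 site (3.19%), and a GC box (GGGCGG) stood in 3 of the 7 against 35.7%. These are matches of letters within 300 bases and show no binding. The GENCODE models whose coordinates follow start upstream of the RefSeq start for Krt18, Krt8, Vim, Nes and Sync, downstream of it for Des and at the same base for Synm.

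Krt18 occupied chr15:102028180-102032027 on the plus strand, and Krt8 occupied chr15:101996698-102004482 on the minus strand. The genes are head to head neighbours, with 23697 bp between them and 0 annotated genes wholly in that gap. Des lay at chr1:75360329-75368579, Sync at chr4:129287617-129308559, Synm at chr7:67730160-67759742, Vim at chr2:13573927-13582826 and Nes at chr3:87971078-87980451. Exons of 4 of the genes overlap a gene on the other strand, and the library kit does not mark strand, so reads of Synm and its partners Ttc23 and Gm45102, and of Sync and its partner Rbbp4, cannot be told apart where they overlap. Over all libraries Rbbp4 held 37397 counts against the 21492 of Sync. Ttc23 and Gm45102 held 25392 and 40478 against the 532518 of Synm. The partners of Krt8 and Des are Gm36026, which held 177 counts over all libraries, and Gm15179, which held 4878 against the 1507233 of Des.

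Library totals lay between 9935424 and 14132960 counts. All 6 skeletal muscle markers (Acta1, Ckm, Myh1, Myh4, Tnnt3 and Mb) were present, and their summed level ran from 56298 to 213077 CPM over the libraries. CPM are read counts relative to library size, here after TMM scaling of that size, and levels are given as mean ± SD. In these bulk samples, fewer cells of a type and less RNA per cell cannot be told apart. Library 3 of SCI boldine at 7 days stood apart in epithelial genes. It held 359 counts of Epcam and 226 of Cdh1, the epithelial adhesion genes, where the other 31 libraries held at most 2 and 15. It also held 120 counts of Esrp1, 52 of Cldn7 and 36 of Cldn4, against at most 1, 4 and 2 elsewhere, so the keratin levels and differences of that group are given with and without it. The 4 sham libraries and SCI vehicle libraries 1 to 4 at 28 days also stood apart from the other 24, with Hipk2 below 30 CPM. No label names a batch, and the fit was repeated with a term for these sets. The label called description gives library 6 of SCI boldine at 28 days a code letter that SCI vehicle libraries otherwise carry, while its title and treatment labels say boldine.

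The keratin pair was almost absent from sham muscle and present in every injured muscle at 7 days. Krt18 stood at 0.318, 0.457, 0.175 and 0.272 CPM in the 4 sham libraries at 7 days, 12 counts in all. In SCI vehicle muscle it stood between 14.5 and 43.6 CPM with a median of 21, and in SCI boldine muscle between 21.4 and 51.6 CPM with a median of 36.7. No injured library overlapped a sham library. The log2 difference from sham was 6.30 ± 0.65 (SE) with vehicle and 6.93 ± 0.64 with boldine, which placed Krt18 at rank 16 and rank 7 of 14955 genes by size of increase. In raw counts, scaled only by library totals, this was 108 times the sham level with vehicle (95% counting interval 61.5 to 209) and 171 times with boldine (97.9 to 332). Without the library with epithelial genes the boldine values were a log2 difference of 6.82 and 155 times the sham level (88.3 to 299.6). These intervals cover counting error only.

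Krt8, the type II partner, was higher as well but at a lower level. It stood at 0.425, 0.228, 0.877 and 0 CPM in 7-day sham muscle, 16 counts in all, and between 2.79 and 12.5 CPM with a median of 5.20 in SCI vehicle muscle. In SCI boldine muscle it ran from 4.49 to 30.5 CPM with a median of 7.77. Again no injured library overlapped a sham library. The highest value was that of the library with epithelial genes: with it the SCI boldine mean was 11.5 ± 9.74 CPM (n = 6), and without it 7.69 ± 3.19 CPM (n = 5). The log2 difference from sham was 3.97 ± 0.86 with vehicle and 4.84 ± 0.84 with boldine, or 4.27 with boldine without that library. Leaving out sham library 3, which held 10 of the 16 sham counts, moved these to 4.86 and 5.73. Krt18 moved less, from 37.3 ± 11.9 CPM (n = 6) to 34.4 ± 10.8 CPM (n = 5) without the library with epithelial genes.

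**Figure D1:**
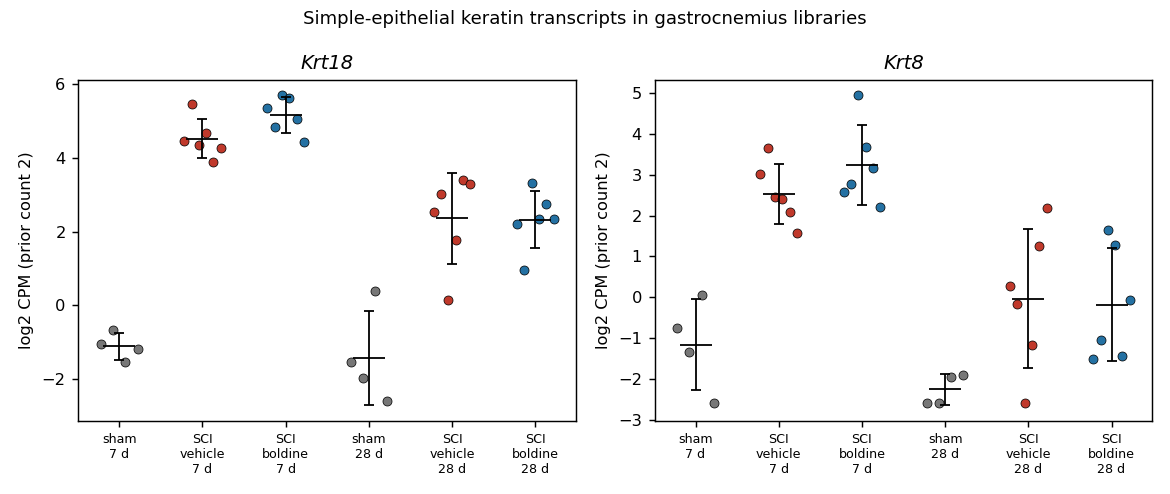
Krt18 (left) and Krt8 (right) in each library, as log2 CPM with a prior count of 2, for the 6 groups; points are libraries, the long bar is the mean and the whiskers are 1 SD. At 7 days every injured library lies above every sham library for both genes, and at 28 days the injured libraries lie lower than at 7 days for Krt18.

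The injured 7-day libraries other than library 3 of SCI boldine held the keratins with next to no epithelial adhesion genes. Over the 6 SCI vehicle libraries at 7 days, Epcam and Cldn4 were at 0 in each, and the summed level of Epcam, Cdh1, Cldn4, Cldn7 and Esrp1 was at most 0.282 CPM, while Krt18 was at least 14.5 CPM. In 7-day sham muscle the same sum ran from 0.438 to 1.71 CPM. Elf3, a transcription factor of epithelia and the remaining marker on the list, went with the keratins by group at 7 days. It stood at 0.367 ± 0.263 CPM in sham, 3.05 ± 2.13 in SCI vehicle and 3.79 ± 1.73 in SCI boldine muscle at that day. At 28 days its levels lay close together, at 0.303 ± 0.181 CPM in sham, 0.514 ± 0.228 in SCI vehicle and 0.402 ± 0.364 in SCI boldine muscle. The whole list of 6 markers, of which 2 passed the filter, summed to between 0.743 and 2.28 CPM in sham, between 0.743 and 5.89 CPM in SCI vehicle and between 2.40 and 56.4 CPM in SCI boldine muscle at 7 days. Of the mesothelial markers, Upk3b and Lrrn4 were at 0 in every group, and Msln stood at 0.744 ± 0.505 CPM in SCI vehicle and 0.184 ± 0.194 CPM in sham muscle at 7 days. The part of cells with Elf3 or Msln in the keratin levels was not tested.

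**Figure D2:**
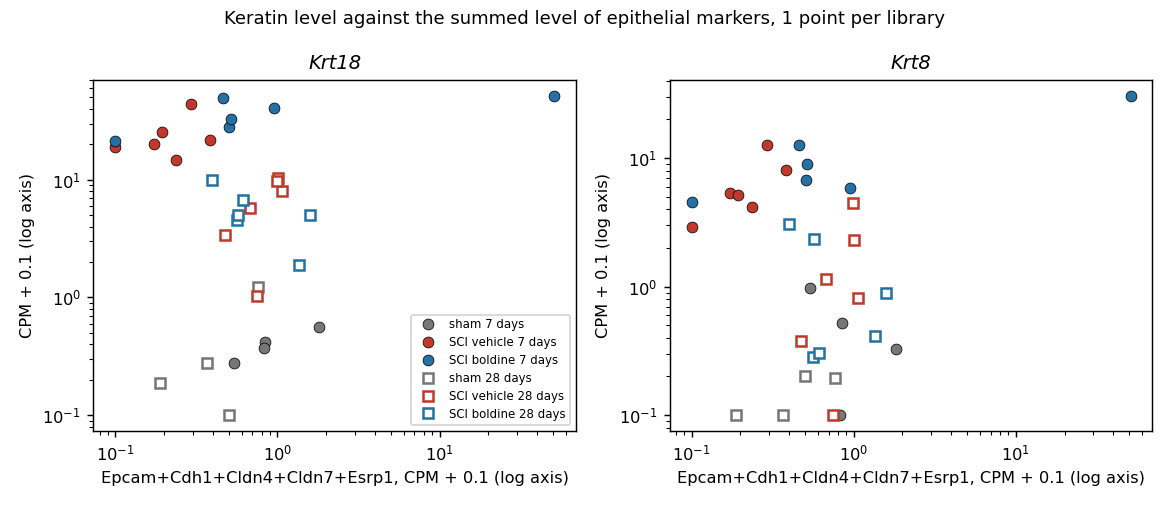
Krt18 (left) and Krt8 (right) against the summed level of Epcam, Cdh1, Cldn4, Cldn7 and Esrp1, both as CPM plus 0.1 on log axes, 1 point per library; filled circles are 7 days, open squares 28 days, and colour is the group. Library 3 of SCI boldine at 7 days lies far to the right, and the other injured 7-day libraries lie high in Krt18 at sums below 1 CPM.

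Few other filament genes were measurable in these muscles. Of 20 further filament genes on the list (keratins, neurofilaments, glial and lens filaments), 2 passed the filter, Krt10 and Krt80, and neither was called in SCI vehicle or SCI boldine against sham at 7 days, where the log2 differences lay between -0.06 and 0.54. Krt19, another type I keratin that pairs with Krt8, failed the filter and had a mean of 0.184 ± 0.103 CPM in SCI vehicle muscle at 7 days and 0.172 ± 0.086 CPM in sham. Krt23 was at 0 in every library but 1, library 3 of SCI boldine at 7 days, with 1.93 CPM there.

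Desmin was the most abundant of the 7 by far and was moderately higher in injured muscle at 7 days. Des stood at 2721, 3457, 3709 and 3566 CPM in sham, between 4351 and 5523 CPM with a median of 4954 in SCI vehicle, and between 4192 and 4991 CPM with a median of 4421 in SCI boldine muscle. No injured library overlapped a sham library. The log2 difference was 0.56 ± 0.09 with vehicle and 0.41 ± 0.08 with boldine. Over the same libraries the summed skeletal muscle markers stood at 171199 ± 23766 CPM in sham, 84982 ± 27250 in SCI vehicle and 76922 ± 20301 in SCI boldine muscle, while desmin stood higher. Of the 6 markers Acta1, Ckm, Myh4 and Tnnt3 had a lower mean in both injured groups, as did Mb, but Myh1 stood at 3178 ± 1146 CPM in sham, 3270 ± 1468 in SCI vehicle and 4861 ± 1348 in SCI boldine muscle.

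Syncoilin, which binds desmin and α-dystrobrevin at the neuromuscular junction and membrane, went with desmin by group. Sync stood at 44.2, 41.9, 42.9 and 42.0 CPM in 7-day sham muscle, a narrow range. SCI vehicle muscle ran from 47.8 to 93.5 CPM with a median of 74.3, and SCI boldine muscle from 57.8 to 79.0 CPM with a median of 72.5. All injured libraries lay above all sham libraries, and the log2 difference was 0.78 ± 0.12 with vehicle and 0.71 ± 0.12 with boldine. The spread among SCI vehicle libraries, an SD of 17.7 CPM, was far wider than the 1.05 CPM of sham. The part of reads from the overlapping gene Rbbp4 in these levels was not tested.

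Synemin, a large filament protein that needs desmin or vimentin as a partner, showed no shift of that size. Synm stood at 1550, 1692, 1617 and 1611 CPM in 7-day sham muscle and ran from 987 to 1920 CPM with a median of 1615 in SCI vehicle and from 992 to 1651 CPM with a median of 1378 in SCI boldine muscle. The injured libraries lay on both sides of the sham range with vehicle, 3 above and 3 below, and the log2 difference was -0.06 ± 0.14, against -0.27 ± 0.14 with boldine. These values rest on TMM scaling. By counts over library totals Synm lay above sham in both injured groups. Per kilobase of exon, synemin came to 23.0% ± 2.82 of desmin in 7-day sham and 15.0% ± 4.02 in SCI vehicle muscle.

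Vimentin and nestin went the other way from desmin at 7 days. Vim stood at 61.5, 71.6, 60.7 and 45.5 CPM in sham and ran from 30.2 to 49.3 CPM with a median of 40.7 in SCI vehicle and from 38.9 to 53.8 CPM with a median of 45.3 in SCI boldine muscle. The groups overlapped through sham library 4. Nes stood at 56.4, 42.4, 53.7 and 45.1 CPM in sham and ran from 21.3 to 41.1 CPM in SCI vehicle and from 28.7 to 41.4 CPM in SCI boldine muscle, below every sham library. Log2 differences were -0.55 ± 0.12 for Vim and -0.67 ± 0.14 for Nes with vehicle, and -0.35 ± 0.12 and -0.55 ± 0.14 with boldine.

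The directions for vimentin and synemin depended on how libraries were scaled. Library totals in place of TMM moved the median of all genes by 0.37 (log2) with vehicle and 0.44 with boldine at 7 days. On that scale the log2 difference was -0.15 for Vim and -0.30 for Nes with vehicle, and 0.09 for Vim and -0.12 for Nes with boldine, so Vim with boldine changed sign and the others stayed below 0. Synm, which lay below sham by TMM, lay above it in both injured groups by library totals. Against the median of all genes on either scale, Vim and Nes were lower. Markers of some cell types that carry these filaments also stood lower. The 6 endothelial markers, all measured, summed to between 170.0 and 248 CPM in sham, between 122 and 160 CPM in SCI vehicle and between 118 and 181 CPM in SCI boldine muscle. The 6 pericyte and smooth muscle markers summed to between 296 and 391 CPM in sham, between 168 and 277 in SCI vehicle and between 195 and 264 in SCI boldine muscle. The 6 fibro-adipogenic markers overlapped more, with 178 to 344 CPM in sham, 138 to 218 in SCI vehicle and 150 to 245 in SCI boldine muscle. The summed satellite cell and myoblast markers, 5 of 6 measured, stood higher instead, between 35.7 and 52.4 CPM in sham, between 76.9 and 103 in SCI vehicle and between 83.4 and 135 in SCI boldine muscle. Pax7, which marks satellite cells, did not follow that sum, with 3.10 ± 0.824 CPM in sham, 2.25 ± 0.713 in SCI vehicle and 2.68 ± 0.492 in SCI boldine muscle. Their part in the vimentin and nestin levels was not tested.

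By edgeR's quasi-likelihood test over all 14955 genes, 4 of the 7 genes (Krt18, Krt8, Des and Sync) were called higher and 2 (Vim and Nes) lower in SCI vehicle against sham at 7 days. Of all genes 21.5% were called higher and 23.1% lower. SCI boldine against sham at 7 days gave the same 4 and 2, where 21.7% of all genes were called higher and 22.5% lower. The 2 comparisons share the sham libraries, and the genes were chosen with this contrast known, so nothing is read from these counts. Nor is anything read from how many of the 7 genes had no overlap with sham at 7 days. The share of all genes without overlap was not counted.

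**Figure D3:**
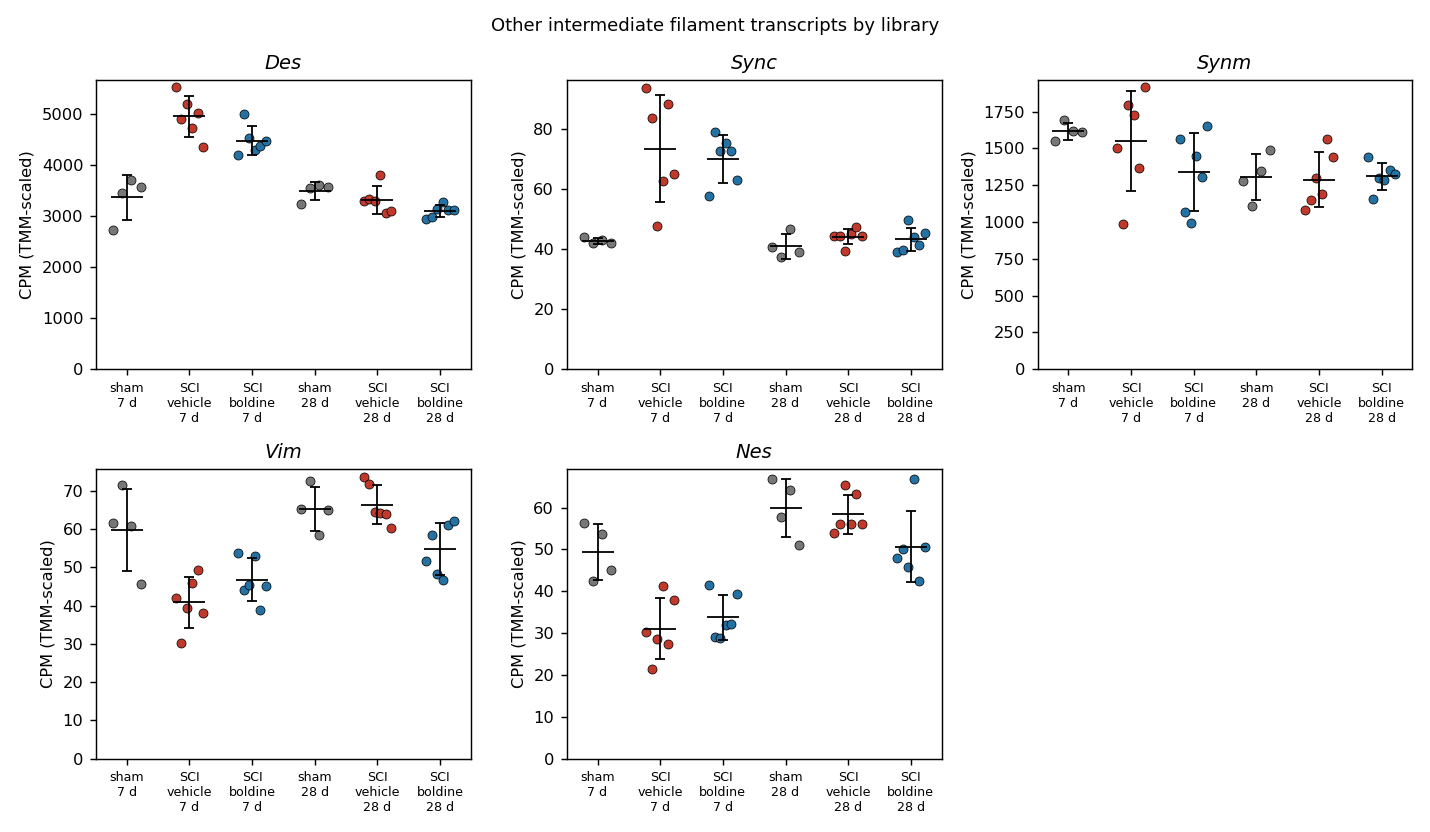
Des, Sync, Synm, Vim and Nes in each library as TMM-scaled CPM on axes that start at 0; points are libraries, the long bar is the mean and the whiskers are 1 SD. At 7 days Des and Sync lie above sham and Nes below it in every injured library, and at 28 days the 3 groups of each panel overlap.

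At 28 days, which the choice of genes did not use, the main fit called Krt18 and Krt8 higher than sham and did not call the other 5 genes. The Krt8 calls and the Krt18 call with boldine did not hold in every alternative, as given below. Krt18 stood at 0.177, 0.0880, 1.14 and 0 CPM in sham, 15 counts of which 12 were in library 3. In SCI vehicle libraries 1 to 6 it stood at 5.63, 7.87, 0.928, 3.27, 10.3 and 9.65 CPM, so that 5 of 6 lay above every sham library and library 3 lay within the sham range. SCI boldine muscle ran from 1.79 to 9.78 CPM with a median of 4.89, all above sham. Krt18 rose by 4.13 ± 0.70 on the log2 scale with vehicle (edgeR quasi-likelihood, adjusted p = 1.78e-04) and by 3.92 ± 0.72 with boldine (adjusted p = 2.07e-04). Krt18 passed the low-count filter through injured libraries, so a level below sham could hardly have been called. The size rested on sham library 3: without it the log2 differences were 5.94 and 5.72. As a ratio of counts Krt18 was 16.9 times the sham level with vehicle (counting interval 10.1 to 30.5) and 14.6 times with boldine (8.74 to 26.4).

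The term for the library sets bore on these calls. With it, SCI vehicle is in effect compared with sham only through vehicle libraries 1 to 4, and the Krt18 difference was 3.65 (adjusted p = 0.00172). For SCI boldine, which has no library in the same set as sham, the term takes its size from the vehicle libraries, and the Krt18 difference was 2.77 (adjusted p = 0.130), so that call ended. Library 6 of SCI boldine did not decide the value, which was 3.95 without it.

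Krt8 was near the limit of detection at 28 days. It stood at 0, 0, 0.0947 and 0.101 CPM in sham, 2 counts in all, and at 1.05, 0.723, 0, 0.280, 2.22 and 4.38 CPM in SCI vehicle libraries 1 to 6. SCI boldine muscle ran from 0.186 to 2.96 CPM with a median of 0.555, above every sham library, while SCI vehicle library 3 lay at 0. The ratio of counts to sham was 29.0 with vehicle (counting interval 7.80 to 243) and 23.0 with boldine (6.13 to 194). Krt8 passed the filter through the 7-day injured libraries and failed it when only the 28-day groups compared entered, which gave no value. Against 2 sham counts the fitted log2 differences, 4.67 ± 1.48 and 4.33 ± 1.55, depend on the prior count of the fit. The edgeR adjusted p was 0.0421 with vehicle and 0.0488 with boldine. The call with vehicle ended in 6 of 10 fits that left out 1 library, among them each of the 4 sham libraries, and with the set term (adjusted p = 0.298). The call with boldine ended in 7 of 10 such fits, library 6 among them (adjusted p = 0.0527), and with the set term (adjusted p = 0.768).

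With vehicle, no difference from sham was detectable at 28 days for the other 5 genes. Des stood at 3313 ± 268 CPM against 3489 ± 172 in sham, Sync at 44.1 ± 2.55 against 40.8 ± 4.09, and Synm at 1288 ± 185 against 1306 ± 158. Vim stood at 66.3 ± 5.10 CPM against 65.3 ± 5.77 in sham, and Nes at 58.4 ± 4.64 against 59.9 ± 6.98. The 95% intervals of their log2 differences bound what could have been missed: from -0.25 to 0.10 for Des, from -0.14 to 0.36 for Sync, from -0.31 to 0.27 for Synm, from -0.21 to 0.26 for Vim and from -0.32 to 0.24 for Nes. The 2 of the 7 genes called higher with vehicle were the keratins, and 0 were called lower, where 4.05% of all genes were called higher and 4.88% lower. With so few sham counts the keratins could hardly have been called lower, so nothing is read from this count. Of the 7, 0 were lower at an unadjusted p under 0.05 as well. DESeq2 called 2 higher and 0 lower, and limma voom called 1 higher and 0 lower, with Krt8 lost (limma adjusted p = 0.361).

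With boldine, mean levels of desmin, vimentin and nestin were below those of sham at 28 days without passing the test. Des stood at 3094 ± 115 CPM, below every sham library in 5 of 6, with a log2 difference of -0.17 ± 0.08 (edgeR adjusted p = 0.154). Vim stood at 54.7 ± 6.73 CPM with a difference of -0.26 ± 0.12 (adjusted p = 0.126), and Nes at 50.6 ± 8.52 CPM with a difference of -0.24 ± 0.14 (adjusted p = 0.230). Of the 7 genes, 2 were called higher, the keratins, and 0 lower, where 8.79% of all genes were called higher and 9.35% lower. At an unadjusted p under 0.05, 2 were lower. DESeq2 called 2 higher and 0 lower, and limma voom called 1 higher and 0 lower, with Krt8 lost (limma adjusted p = 0.245). With library totals, which moved the median of all genes by -0.10, the adjusted p fell to 0.0453 for Des, 0.0402 for Vim and 0.0459 for Nes. Over the same groups the endothelial markers summed to between 285 and 349 CPM in sham and between 142 and 221 CPM in SCI boldine muscle. Pericyte and smooth muscle markers summed to between 458 and 503 CPM and between 269 and 405 CPM. Fibro-adipogenic markers did not stand lower, at 233 ± 7.82 CPM in sham and 267 ± 44.7 CPM in SCI boldine muscle. Nor did macrophage markers, at 29.9 ± 6.44 and 32.6 ± 8.78 CPM. The part of these cells was not tested.

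**Figure D4:**
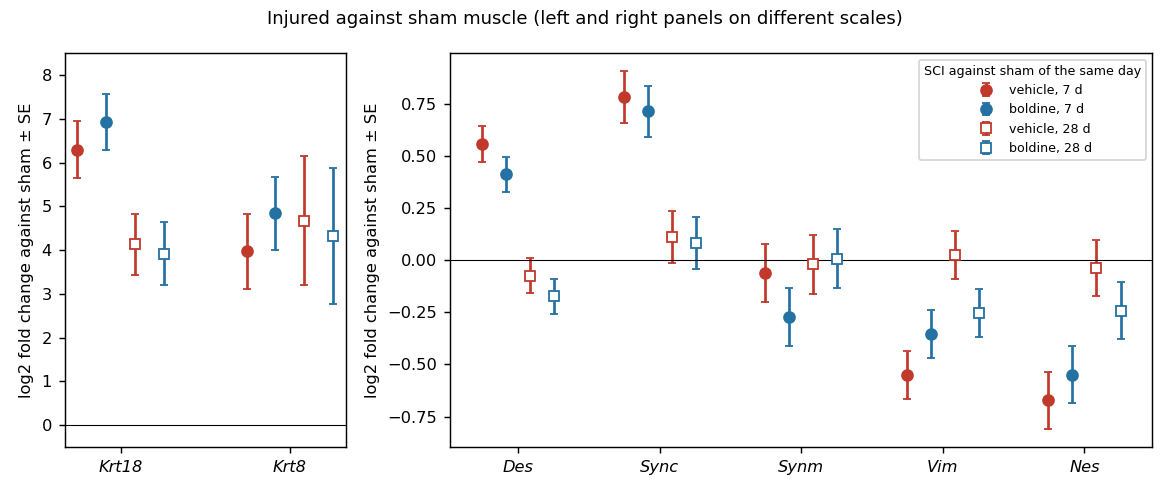
Log2 difference from sham of the same day, with 1 SE, for the keratins (left) and the other 5 genes (right, on a smaller scale); filled circles are 7 days and open squares 28 days, red is SCI vehicle and blue SCI boldine. The keratins lie at 3.92 or above in all 4 comparisons, while Des, Sync, Vim and Nes lie away from 0 at 7 days and between -0.26 and 0.11 at 28 days; the Krt8 points at 28 days rest on 2 sham counts.

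Boldine against vehicle in injured muscle gave no call for any of the 7 genes at either day. At 7 days, where the vehicle libraries also stood in the choice of genes, 0 of the 7 were called by edgeR against 0.0334% of all genes. Krt18 was the 1 gene with an unadjusted p under 0.05 (adjusted p = 0.506), with 37.3 ± 11.9 CPM with boldine and 24.1 ± 10.2 CPM with vehicle, and 2 of 6 boldine libraries lay above every vehicle library. Its log2 difference was 0.63 ± 0.30, or 0.51 without the library with epithelial genes. Krt8 differed by 0.87 ± 0.48 with that library and by 0.28 without it. The intervals of the other 5 were from -0.30 to 0.01 for Des, from -0.02 to 0.41 for Vim, from -0.13 to 0.38 for Nes, from -0.28 to 0.15 for Sync and from -0.47 to 0.05 for Synm. DESeq2 and limma voom also called 0 of the 7.

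At 28 days 0 of the 7 genes were called between boldine and vehicle against 0.0201% of all genes, and DESeq2 and limma voom called 0. Vim was the single gene with an unadjusted p under 0.05, at 54.7 ± 6.73 CPM with boldine and 66.3 ± 5.10 CPM with vehicle. Its log2 difference was -0.28 ± 0.10 (edgeR adjusted p = 0.330), and 4 of 6 boldine libraries lay below every vehicle library. With the set term the difference was -0.18. Krt18 differed by -0.22, with an interval from -0.99 to 0.56, and Krt8 by -0.34, with an interval from -1.79 to 1.11, so differences within these intervals were not detectable at this depth.

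The boldine effect at 28 days minus that at 7 days is a description, since the 7-day libraries stood in the choice of genes. It was -0.47 ± 0.15 for Vim, which stood higher with boldine than with vehicle at 7 days (46.7 ± 5.66 against 40.8 ± 6.62 CPM) and lower at 28 days. It was -0.84 ± 0.48 for Krt18 and -1.21 ± 0.86 for Krt8, or -0.71 and -0.61 without the library with epithelial genes. By edgeR 0 of the 7 genes were called, against 0.00669% of all genes, and 1 had an unadjusted p under 0.05. DESeq2 and limma voom called 0, and nothing is read from these counts.

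Between 7 and 28 days most of the 7 genes stood closer to the sham level in injured muscle, which is given without a test. In SCI boldine muscle the log2 difference of 28 from 7 days was -2.78 ± 0.35 for Krt18 and -3.34 ± 0.60 for Krt8, or -2.68 and -2.77 without the library with epithelial genes. It was -0.53 ± 0.08 for Des and -0.70 ± 0.11 for Sync. For Krt18, Krt8, Des and Sync every 28-day library lay below every 7-day library. The share of all genes separated in this way was not counted, so nothing is read from how many did so. Nes lay higher at 28 days with no overlap, by 0.58 ± 0.12, while Vim differed by 0.23 ± 0.10 and Synm by -0.03 ± 0.13. In all, edgeR called 1 of the 7 higher and 4 lower, where 21.5% of all genes were called higher and 21.6% lower, and nothing is read from this count.

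With library totals the median of all genes moved by -0.49 in that comparison. Nes then differed by 0.08, Synm by -0.52, and Vim changed sign to -0.27. Krt18, Krt8, Des and Sync were lower at 28 days on both scales.

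In SCI vehicle muscle Krt18 at 28 days lay below every 7-day library, with a log2 difference of -1.94 ± 0.34, and Des and Sync did so as well, with -0.58 ± 0.08 and -0.74 ± 0.11. Krt8 differed by -2.12 ± 0.58, with 5 of 6 libraries below every 7-day library. Vim and Nes at 28 days lay above every 7-day library, with 0.70 ± 0.10 and 0.91 ± 0.12. Here too the share of all genes separated in this way was not counted, so nothing is read from how many did so.

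The difference from sham at 28 days minus that at 7 days was -0.63 ± 0.12 for Des, -0.67 ± 0.17 for Sync, 0.57 ± 0.16 for Vim and 0.63 ± 0.19 for Nes. For Krt18 it was -2.17 ± 1.42, or -0.36 without sham library 3 at 28 days. Krt8 did not follow Krt18, with 0.70 ± 1.93, and in sham muscle it stood at 16 counts at 7 days and 2 at 28 days. In sham muscle the differences between days were within 0.31 for the 5 genes other than the keratins. The largest of these was that of Synm, at -0.31 ± 0.15, with all 4 libraries at 28 days (1110 to 1489 CPM) below all 4 at 7 days (1550 to 1692 CPM). All sham libraries at 28 days belong to the low-Hipk2 set and none at 7 days does, so day and set cannot be told apart there.

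Levels were compared per kilobase over all exons of a gene, so they depend on the length chosen. Desmin led in every group, with means from 824 to 1318 CPM per kilobase. Synemin came next with 162 to 204, and the ranges of these 2 genes did not overlap those of any other. Below them in sham muscle at 7 days stood Sync (14.9 ± 0.367), Vim (12.6 ± 2.27) and Nes (7.70 ± 1.05), where Sync and Vim overlapped and Nes lay below both. By the longest transcript the order of Sync and Vim reversed there, with Vim at 20.4 ± 3.68 and Sync at 18.3 ± 0.451. Krt18, at 0.213 ± 0.081, and Krt8, at 0.195 ± 0.190, were lowest and overlapped each other.

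In SCI vehicle muscle at 7 days that lower order had changed. Sync led at 25.7 ± 6.19 CPM per kilobase, Krt18 followed at 16.8 ± 7.10, and Vim (8.60 ± 1.4), Nes (4.84 ± 1.13) and Krt8 (3.21 ± 1.78) came after, with neighbours overlapping. In SCI boldine muscle at 7 days Krt18 reached 26.0 ± 8.30 and Sync 24.5 ± 2.78. Krt18 per kilobase then came to 1.28% ± 0.553 of desmin with vehicle and 2.20% ± 0.753 with boldine, against 0.0243% ± 0.0101 in sham. Without the library with epithelial genes the boldine values were 24 ± 7.5 CPM per kilobase and 2.04% ± 0.724 of desmin (n = 5). Krt18 came to 5.77 ± 1.98 times Krt8 per kilobase with vehicle and 5.74 ± 2.34 times with boldine at 7 days, or 6.43 ± 1.81 times without that library. At 28 days with boldine the ratio was 16.6 ± 17.1, spread from 2.95 to 43.6 by the few counts of Krt8.

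**Figure D5:**
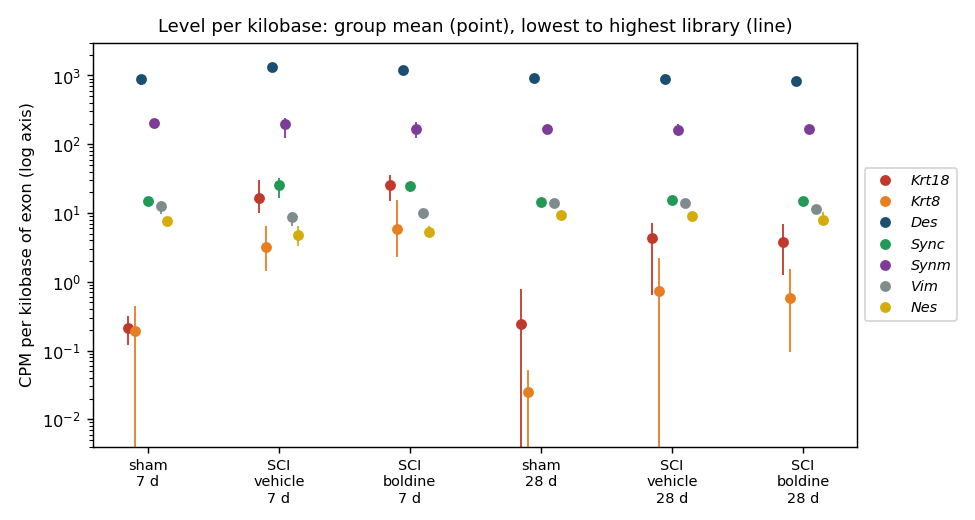
Level of the 7 genes per kilobase of exon on a log axis in the 6 groups; points are group means and lines run from the lowest to the highest library, cut at the bottom of the axis where a library is at 0. Des and Synm stay on top in every group, and the keratins climb from below 1 in sham to the range of Sync, Vim and Nes at 7 days after injury.

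Among libraries of the same group, the 2 keratins varied together. After group means were removed, log2 CPM of Krt18 and Krt8 correlated over the 32 libraries with Pearson r = 0.610 (permutation p = 0.00055, adjusted over 21 pairs p = 0.0115) and Spearman rho = 0.562 (permutation p = 0.00168, adjusted p = 0.0176). Without the 2 libraries farthest from the median of Krt18, r was 0.545, and without the library with epithelial genes 0.603. Over the 24 injured libraries r was 0.772. Krt8 also varied with Sync, with r = 0.394 (permutation p = 0.00426, adjusted p = 0.0409) and rho = 0.560 (permutation p = 0.00085, adjusted p = 0.0176). Nes varied with Synm by Pearson r = 0.567 (permutation p = 0.00585, adjusted p = 0.0409) but not past the threshold by rho = 0.361 (permutation p = 0.0656, adjusted p = 0.253). None of the remaining pairs passed the threshold by either measure. With library totals in place of TMM, r was 0.623 for Krt18 and Krt8, 0.388 for Krt8 and Sync and 0.389 for Nes and Synm, and that of Des and Sync was 0.637 in place of 0.197. The summed skeletal muscle markers, with group means removed, had r = 0.707 with Synm, 0.564 with Nes and -0.711 with Sync. With Krt18 and Krt8 it was -0.050 and -0.131. The part of muscle content in the correlations of these genes was not tested.

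As a description, the genes most like Krt18, Des and Nes over the same 32 libraries, by Pearson r of the same deviations, were sought among 8942 genes with a mean of at least 5 CPM. For Krt18 these were Serinc5 (r = 0.731), a membrane protein that limits retroviral infectivity, Arfgef2 (0.688), an activator of ARF GTPases in vesicle traffic, Sh3d19 (0.668) and Plekho1 (0.645). For Des they were Cnksr1 (0.793), Daglb (0.789), Dym (0.762) and Chaf1a (0.745), and for Nes Lsmem1 (0.761), Prr29 (0.745), Ufsp1 (0.742) and Ache (0.722), the acetylcholinesterase of the neuromuscular junction.

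Proteins that tie filaments to junctions, membrane or Z-discs moved in both directions. Of 12 such genes 11 were measured, and 3 rose and 0 fell in SCI vehicle against sham at 28 days, where 4.05% of all genes rose and 4.88% fell. Their median log2 difference was -0.07 against 0.00 for all genes. Dtna, the α-dystrobrevin that syncoilin binds, rose by 0.45 ± 0.10 (edgeR adjusted p = 0.0041), from 85.5 ± 6.79 to 117 ± 12.7 CPM. Neb, the nebulin that runs along thin filaments and binds desmin at the Z-disc, rose by 0.45 ± 0.12 (adjusted p = 0.0182), and Vcl, the vinculin of costameres, rose by 0.25 ± 0.07 (adjusted p = 0.0322). Flnc, the filamin of muscle Z-discs, differed by -0.51 ± 0.17 (adjusted p = 0.0545).

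With boldine at 28 days 3 of the 11 rose, again Dtna (0.52 ± 0.10), Neb (0.67 ± 0.13) and Vcl (0.25 ± 0.07), and 2 fell, Flnc (-0.79 ± 0.17, edgeR adjusted p = 0.00116) and Jup, the plakoglobin of desmosomes (-0.39 ± 0.11, adjusted p = 0.00969). Of all genes 8.79% rose and 9.35% fell there. The median log2 difference of the list was 0.06 against -0.01 for all genes. At 7 days, on the contrast known when the genes were chosen, 3 were called higher and 4 lower with vehicle (21.5% and 23.1% of all genes) and 2 higher and 5 lower with boldine (21.7% and 22.5%). Those called with vehicle are named because they were called. Tln1 (talin) differed by 0.77, Macf1 by 0.38 and Jup by 0.28, and Dtna differed by -0.82, Zyx (zyxin) by -0.65, Plec, the plectin that cross-links filaments, by -0.50 and Dst (dystonin) by -0.43. Dtna thus stood below sham at 7 days, at 64.0 ± 10.2 against 113 ± 7.67 CPM, and above it at 28 days. Sham itself stood lower at 28 days, at 85.5 ± 6.79 CPM for Dtna. For Neb sham stood at 6479 ± 766 CPM at 7 days and 4787 ± 293 CPM at 28 days. SCI vehicle muscle at 28 days, at 117 ± 12.7 and 6535 ± 801 CPM, was near the 7-day sham levels of both. The library set term was read for the 7 genes only, so its bearing on this list, the lamins and the chaperones was not tested.

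Of the 3 nuclear lamins, the filament proteins of the nuclear envelope, 0 were called at 28 days in SCI vehicle against sham by edgeR, and 0 had an unadjusted p under 0.05. Lmna differed by -0.11 ± 0.17, Lmnb1 by -0.08 ± 0.18 and Lmnb2 by 0.04 ± 0.19. At 7 days Lmna stood at 127 ± 43.4 CPM with vehicle and 140.1 ± 24.6 with boldine, against 70.2 ± 5.88 CPM in sham, log2 differences of 0.85 ± 0.17 and 1.00 ± 0.17. Of 6 genes that chaperone or degrade filaments, 0 rose and 1 fell at 28 days with vehicle, against 4.05% and 4.88% of all genes: Bag3, a co-chaperone of filament and filamin turnover, fell by 0.37 ± 0.11 (edgeR adjusted p = 0.0393). Cryab, the small heat shock protein that binds desmin, differed by -0.61 ± 0.24 (adjusted p = 0.113), Capn1, a calcium-activated protease, by 0.07 ± 0.09 and Hspb1, another small heat shock protein, by -0.10 ± 0.22. Krt10 and Krt80 differed by 0.39 ± 0.30 and -0.67 ± 0.45 at 28 days with vehicle, and neither had an unadjusted p under 0.05.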

How the data were processed

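Per the labels' protocols, RNA came from pieces of gastrocnemius holding both heads of the muscle, and the NEBNext Ultra libraries made from it do not mark strand. The deposited values are raw counts per Ensembl gene identifier, which the authors made from reads handled with FastQC, Trim Galore, cutadapt and STAR on mm10, per the submitters' processing notes. The sources used here name neither the counting step nor its annotation.

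Of 55487 identifiers, GENCODE M21 named 55227. The 260 unnamed ones held 0.0189% of counts and stayed in the table under their identifiers. Another 116 identifiers, which share a symbol with a more counted one, stayed in under the symbol joined to the identifier. Genes passing filterByExpr (minimum count 10, minimum total 15) were scaled by TMM, whose factors ran from 0.824 to 1.36. They were tested with edgeR 4.0.16's quasi-likelihood test in R 4.3.3, with 1 mean per group over all 32 libraries and Benjamini-Hochberg adjustment over 14955 genes at a threshold of 0.05. All adjusted p-values are from edgeR unless another tool is named. A standard error is the log2 difference divided by the root of the test's F statistic. DESeq2 1.42.0, voom with quality weights in limma 3.58.1, other scalings and filters, a replicate block, a library set term and leaving out each library were the alternatives. Keratin ratios and correlations without SCI boldine library 3 at 7 days were added after the data were seen. The scripts were tested on simulated counts.

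The 7 genes and all lists were chosen with earlier results of these data known. Of each list the 4 genes with the smallest p in SCI vehicle against sham at 28 days are named. Correlations used log2 CPM with a prior count of 2, group means removed and 100000 permutations within groups. Counting intervals for ratios are exact binomial at 95%, and 3 counts, the limit that a count of 0 allows, came to 0.301 CPM in sham library 1 at 7 days. The labels do not tie samples to named animals, so the p-values rest on the variation among libraries, which may be technical. RefSeq promoters of GRCm38.p6 matched all 7 genes.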

Additional observations from a re-analysis of the deposited data

Results flagged for a closer look

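Over the 42 sets of a gene and a group, 5 libraries stood far from the rest of their group by Dixon's test at its 95% critical value, which by its definition chance passes in about 1 of 20 sets. Krt18 in sham library 3 at 28 days stood at 1.14 CPM, above the other 3 sham libraries at 0 to 0.177 CPM. Krt8 in SCI boldine library 3 at 7 days stood at 30.5 CPM, in the library that also held Epcam and Cdh1. Des stood low in sham library 1 at 28 days, at 3234 CPM, and high in SCI vehicle library 4 at 28 days, at 3809 CPM. Nes stood high in SCI boldine library 4 at 28 days, at 66.9 CPM. Des also went opposite ways by day: every SCI boldine library lay above the sham mean at 7 days, by a mean of 0.42 in log2 CPM, and below it at 28 days, by a mean of -0.17, and the difference was not tested.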

How the results depend on the processing

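Among the results that summarise a comparison, 145 kept their value or call across the alternatives that kept all libraries and 15 moved; with 1 library left out, 187 kept it and 16 moved. The cause was not tested unless the alternative's construction gives it. With library totals, 1 gene was called lower with vehicle and 0 with boldine at 7 days, and at 28 days with boldine 1 was called higher and 3 lower. For 28 against 7 days in SCI boldine 0 were then called higher. At 28 days with vehicle 1 was called higher with voom, with only the groups compared and with the library set term. With boldine 1 was called higher with voom and with only the groups compared, where Krt8 failed the filter, and 0 with the set term; 1 was called lower with only the groups compared. Leaving out 1 library gave 1 to 2 called lower with boldine at 7 days, and 1 to 2 called higher at 28 days with vehicle, with boldine, and in SCI boldine between days. The share of all genes called under each of these settings is not given, so nothing is read from the counts of calls in this section.

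Replicate numbers did not pair the samples: over 28 same-numbered pairs the correlation of deviations ran from -0.213 to 0.264, 2 were over 0.1, and 3 matched their own number best. With the replicate block 1 gene was called higher in SCI boldine against sham at 28 days, where Krt8 was lost (adjusted p = 0.0572), and the Synm difference there was -0.051.

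Differences near 0 changed sign. With library totals Vim was at 0.092 with boldine at 7 days, -0.073 with vehicle at 28 days and -0.27 between days in SCI boldine, and for boldine at 28 days Synm was at -0.083 and Sync at -0.0086. On that scale Synm also lay above sham at 7 days, with vehicle and with boldine. With voom Synm was at -0.0063 with boldine at 28 days and 0.00052 between days in SCI boldine, and between boldine and vehicle at 28 days Krt18 was at 0.094 and Krt8 at 0.24. Without a filter Synm was at -0.0088 with boldine at 28 days. With the set term, against sham with boldine at 28 days, Synm was at -0.34 and Sync at -0.0041; between boldine and vehicle at 28 days Des was at 0.0078 and Synm at -0.20, and the boldine effect between days for Sync was at -0.016. With 1 library left out, ranges with vehicle at 28 days were -0.028 to 0.077 for Vim, -0.11 to 0.017 for Nes and -0.090 to 0.049 for Synm, and with boldine -0.065 to 0.074 for Synm. Between boldine and vehicle they were -0.18 to 0.0081 for Sync at 7 days, -0.90 to 0.43 for Krt8 and -0.020 to 0.089 for Synm at 28 days. They were -0.026 to 0.16 for the boldine effect between days for Sync and -0.11 to 0.028 for Synm between days in SCI boldine. By the longest transcript in place of all exons, the level in SCI vehicle muscle at 7 days was 1634 CPM per kilobase for Des and 13.9 for Vim. Krt8 at 28 days is limited by depth, with 2 sham counts.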
